A study of Mus musculus with 9 samples.

Results

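The 10 genes described here are Fkbp5, Sgk1, Tsc22d3, Per1, Klf9 and Zbtb16, which are known targets of glucocorticoid or progesterone receptors, and Fkbp4, Hsp90ab1, Ptges3 and Stip1, which encode the chaperones that hold those receptors ready for hormone. They were chosen by name, around the lower level of Fkbp5 in ERβKO ovaries that earlier work on these data had shown, to ask whether Fkbp5 was lower alone or together with other hormone targets and its chaperone partners. The comparison of the genotypes is therefore a description for these 10 genes. No p is given for them, and calls among them are counted only to set them beside the share of all genes, as no independent evidence. All 10 had 1 row each among the 46078 genes of the count table, and all 10 were among the 16722 genes that passed the filter on low counts. The RNA came from whole ovaries of C57BL/6J mice, 5 WT and 4 ERβKO, with 1 library per sample and no treatment according to the labels. In ERβKO mice exon 3 of the estrogen receptor β gene, Esr2, was deleted in all tissues with a Rosa26-Cre deleter line and passed on by breeding heterozygotes, and WT mice were offspring without Cre. Mice were 4 to 20 weeks old over all experiments, and ovaries were not taken at a fixed stage of the estrous cycle. The age, cycle stage and diet of each library are not given, and a protocol text in the labels that speaks of diets and injections goes against the label of no treatment.

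Glucocorticoid and progesterone receptors bind hormone only when held in shape by a cycle of chaperones. Stip1 (also called Hop) brings client proteins from Hsp70 to Hsp90, and Ptges3 (p23) stabilizes the mature complex. The Hsp90-bound immunophilins Fkbp5 (FKBP51) and Fkbp4 (FKBP52) compete for the same place. Fkbp5 lowers and Fkbp4 raises the hormone response of the glucocorticoid and progesterone receptors. Fkbp5 is itself induced by glucocorticoids, progestins and androgens, which forms a feedback loop, and in the ovary the corpus luteum is the main source of progesterone.

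The libraries held 12353740 to 18717510 counted fragments, and the totals were not shown to differ between genotypes (two-sided exact permutation test, p = 0.429). FPKM, the level unit used here, is fragments scaled for gene length and library depth by the authors. Log2 fold changes are of counts, ERβKO minus WT, from edgeR with its standard error (SE) and 95% interval. A gene is called here if its Benjamini-Hochberg adjusted p in edgeR's quasi-likelihood test was under 0.05, its absolute log2 fold change was over 0.4 and its mean FPKM was over 1 in at least 1 genotype. Across the 16722 genes, 1.72% were called, 0.915% higher and 0.801% lower in ERβKO ovaries, and the median log2 fold change was -0.00089. The deleted gene did not check the labels, because the count over all of Esr2 includes the exons that remain: its level was 16.7 ± 4.46 FPKM (SD, n = 5) in WT and 16.1 ± 5.55 FPKM (SD, n = 4) in ERβKO ovaries. WT replicate 2 stood apart from the other WT ovaries. On the first principal component, which held 35.9% of the variance, it lay at 9.43, while the other WT ovaries lay between -43.8 and -15.6 and the ERβKO ovaries between 19.4 and 35.4. WT replicates 4 and 5 carry library numbers above 200 and the other 7 libraries carry numbers below 200, so results are also given for these 7, while the numbers above 200 hold WT libraries only.

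Fkbp5 and Sgk1 were lower in every ERβKO ovary than in any WT ovary. Fkbp4 and Zbtb16 were on average higher in ERβKO ovaries with overlapping groups. The other 6 genes had log2 fold changes between -0.11 and 0.13, and 60.5% of all genes had an absolute log2 fold change under 0.2. Of the 10 genes 2 were called, Fkbp5 and Sgk1, both in the direction of lower levels in ERβKO ovaries, where 0.801% of all genes were called. The median log2 fold change of the 10 genes was 0.0029, with 5 below 0 and 5 above 0, where 49.9% of all genes lay above 0. The groups did not overlap in 2 of the 10 genes, both lower in ERβKO ovaries, as was so for 3.31% of all genes, while 4.29% were higher without overlap. Nothing is read from these counts, since the comparison was known when the genes were chosen.

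**Figure D1:**
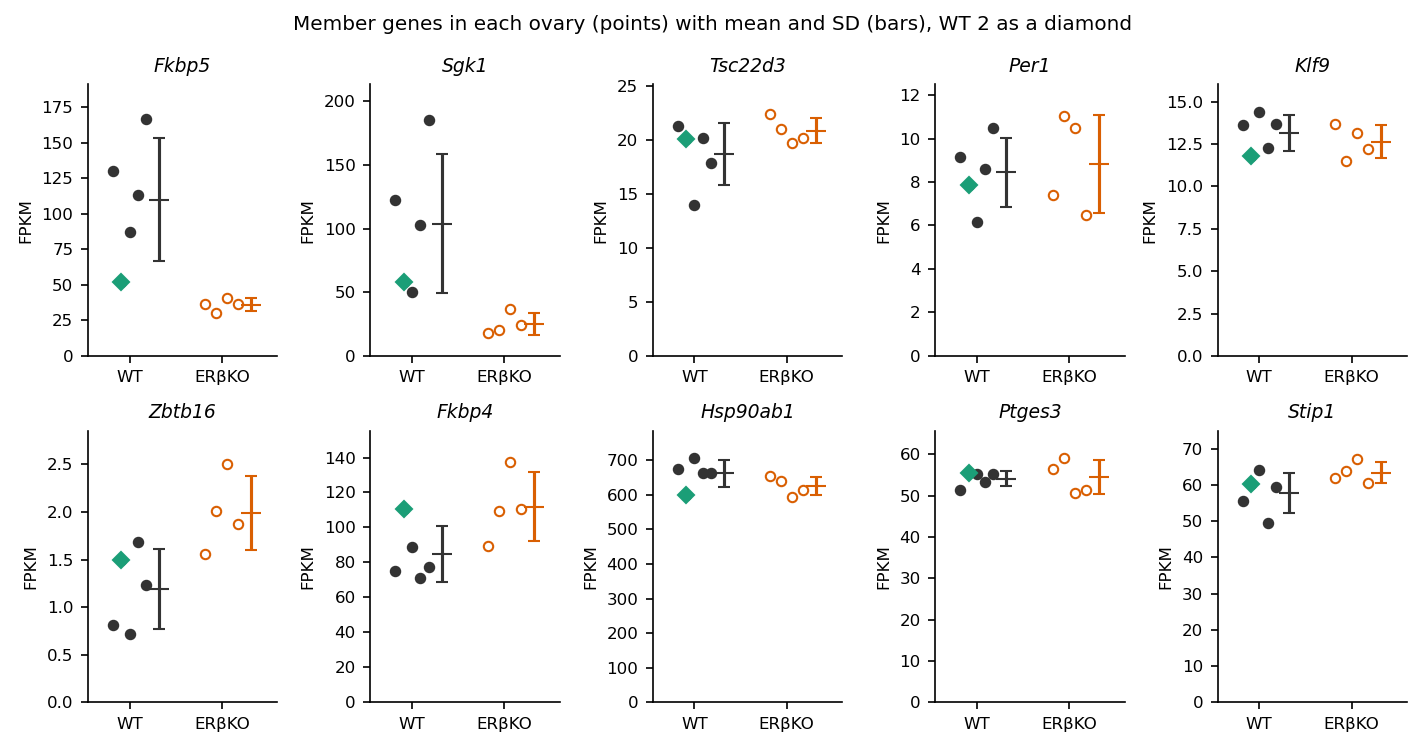
FPKM (y axes, from 0) of the 10 genes in each WT ovary (filled points, n = 5, replicate 2 as a green diamond) and each ERβKO ovary (open points, n = 4), with the mean and SD as bars at the right of each group. The ERβKO points lie below all WT points for Fkbp5 and Sgk1, and the groups overlap for the other 8 genes.

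Fkbp5 (ENSMUSG00000024222, chr17:28399095-28517524 on the minus strand of GRCm38) had FPKM values of 129.9, 51.9, 87.1, 113 and 167 in WT (replicates 1 to 5) and 36.5, 29.9, 40.6 and 36.9 in ERβKO ovaries (replicates 1 to 4). The groups did not overlap, WT replicate 2 was the WT ovary nearest to the ERβKO ovaries, and the ERβKO ovaries lay close together. The mean was 109.8 ± 43.4 FPKM (SD, n = 5) in WT and 36.0 ± 4.43 FPKM (SD, n = 4) in ERβKO ovaries, and the coefficient of variation was 39.5% in WT against 12.3% in ERβKO. Behind these levels stood 4577 to 12133 counts per WT library and 2553 to 3251 per ERβKO library. The log2 fold change of Fkbp5 was -1.68 (SE 0.294, 95% interval -2.33 to -1.03), a level 3.2-fold higher in WT. Of all genes tested, 0.61% had a log2 fold change as low or lower. Without WT replicate 2 the value was -1.86, and in the 7 libraries numbered below 200 it was -1.36.

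Sgk1 (ENSMUSG00000019970, chr10:21882184-21999903 on the plus strand) encodes a kinase that is switched on rapidly by glucocorticoids and mineralocorticoids and regulates ion channels and transporters. In replicate order, Sgk1 FPKM was 122, 58.5, 50.1, 103 and 186 in the WT group and 18.2, 20.5, 37.3 and 24.5 in the ERβKO group. The ERβKO ovaries again all lay below the WT ovaries, with WT replicates 2 and 3 as the lowest of the WT group and replicate 5 the highest, as for Fkbp5. The mean was 104 ± 54.7 FPKM (SD, n = 5) in WT and 25.1 ± 8.51 FPKM (SD, n = 4) in ERβKO ovaries, with a log2 fold change of -2.06 (SE 0.404, 95% interval -2.95 to -1.16). Without WT replicate 2 it was -2.21, and in the libraries numbered below 200 it was -1.59. The ratio of Fkbp5 to Sgk1 FPKM was 1.14 ± 0.349 (SD, n = 5) in WT and 1.51 ± 0.377 (SD, n = 4) in ERβKO ovaries, so on the FPKM scale the genotypes overlapped in this ratio.

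Whether Fkbp5 and Sgk1 met the criteria of a call depended on single libraries, while their direction did not. Neither gene was called without WT replicate 1, without ERβKO replicate 2, without ERβKO replicate 4 or in the 7 libraries numbered below 200, and Sgk1 alone lost its call without WT replicate 4, WT replicate 5 or ERβKO replicate 1. In the fits that left out 1 library the log2 fold change of Fkbp5 lay between -1.86 and -1.45 and that of Sgk1 between -2.32 and -1.73.

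The windows around the transcription starts of these genes were searched for short sequences that steroid receptors and other factors of this pathway are known to bind. RefSeq promoter windows of 250 bases before to 50 bases after a start (GRCm38.p6) were at hand for 8 of the 10 genes, with 1 window for Fkbp5 and 6 for Sgk1. The Fkbp5 window is chr17:28486100-28486399, minus strand, and the Sgk1 window shown is chr10:21993640-21993939, plus strand. The first is shown because Fkbp5 is the gene the others were gathered around, and the second because of the element described after it. Capitals mark the motif matches.

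Fkbp5: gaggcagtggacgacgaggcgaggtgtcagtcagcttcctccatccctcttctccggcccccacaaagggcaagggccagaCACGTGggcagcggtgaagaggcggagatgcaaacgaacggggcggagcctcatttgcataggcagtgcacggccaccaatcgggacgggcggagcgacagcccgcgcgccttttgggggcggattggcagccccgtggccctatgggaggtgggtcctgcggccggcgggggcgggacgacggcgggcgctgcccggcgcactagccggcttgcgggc

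Sgk1: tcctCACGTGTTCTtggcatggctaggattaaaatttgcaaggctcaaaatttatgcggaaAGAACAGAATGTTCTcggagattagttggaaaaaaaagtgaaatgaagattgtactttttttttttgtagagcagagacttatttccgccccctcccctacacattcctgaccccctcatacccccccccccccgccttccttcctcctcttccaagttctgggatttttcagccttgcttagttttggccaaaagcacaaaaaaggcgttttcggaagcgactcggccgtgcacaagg

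The Sgk1 window holds the whole palindromic glucocorticoid and progesterone response element, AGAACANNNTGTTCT, with its first base at position -189 relative to the start (counted as 0), as the run of 15 capitals. This element was found, on both strands, in 3 of 32851 RefSeq windows (0.00913%), and among the 8 genes only in this 1 of the 6 windows of Sgk1. Its single arm, AGAACA, is common, with a match in 19% of all windows, and was found in windows of Sgk1 and Tsc22d3. The first run of capitals in the Sgk1 window is an E-box, CACGTG, that overlaps such an arm read on the other strand. The capitals in the Fkbp5 window are an E-box at position -169, a motif present in 7.15% of all windows and also in 1 window of Per1. The motif of the NR5A receptors, TCAAGGTCA, was in 0.423% of all windows and in 2 other windows of Sgk1. No window of the 8 genes held the estrogen response element GGTCANNNTGACC (0.07% of all windows), the cAMP response element TGACGTCA (1.79%) or the heat shock element GAANNTTCNNGAA (0.603%). A match describes the letters of these windows only, and none of the windows reaches the distal regions from which hormone receptors often act.

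The other 4 hormone targets were not lower together with Fkbp5 and Sgk1. Tsc22d3 (chrX:140539528-140600659, minus strand), which encodes the glucocorticoid-induced leucine zipper GILZ, ranged from 14.0 to 21.3 FPKM in WT and from 19.8 to 22.5 in ERβKO ovaries. Its log2 fold change was 0.13 (SE 0.104), with a 95% interval of -0.10 to 0.36. Klf9 (chr19:23141226-23166911, plus strand), a zinc finger factor induced by glucocorticoids, ranged from 11.8 to 14.4 FPKM in WT and from 11.5 to 13.7 in ERβKO ovaries. The log2 fold change of Klf9 was -0.08 (SE 0.0887), with an interval of -0.27 to 0.12. Both genes varied little among the WT ovaries, with a coefficient of variation of 15.5% for Tsc22d3 and 8.18% for Klf9, against 52.6% for Sgk1.

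Per1 (chr11:69095217-69109960, plus strand), a clock gene that glucocorticoids also induce, had FPKM values of 9.14, 7.87, 6.14, 8.58 and 10.5 in the WT group and 7.39, 11.0, 10.5 and 6.48 in the ERβKO group. The 2 genotypes covered nearly the same range, and the log2 fold change of 0.02 (SE 0.194) had a wide interval, -0.41 to 0.45. Zbtb16 (chr9:48654311-48835945, minus strand), which encodes the transcriptional repressor PLZF and responds to glucocorticoids and progestins, went the other way. In replicate order, its FPKM was 0.818, 1.49, 0.716, 1.69 and 1.24 in the WT group and 1.56, 2.02, 2.50 and 1.88 in the ERβKO group. Of the ERβKO ovaries 3 of 4 lay above the highest WT ovary, and the log2 fold change was 0.78 (SE 0.251, 95% interval 0.23 to 1.33). Zbtb16 had the lowest level of the 10 genes and rested on 75 to 185 counts per WT library and 195 to 283 per ERβKO library. It was not called in edgeR and was called in DESeq2, in which 4.78% of all genes were called.

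**Figure D2:**
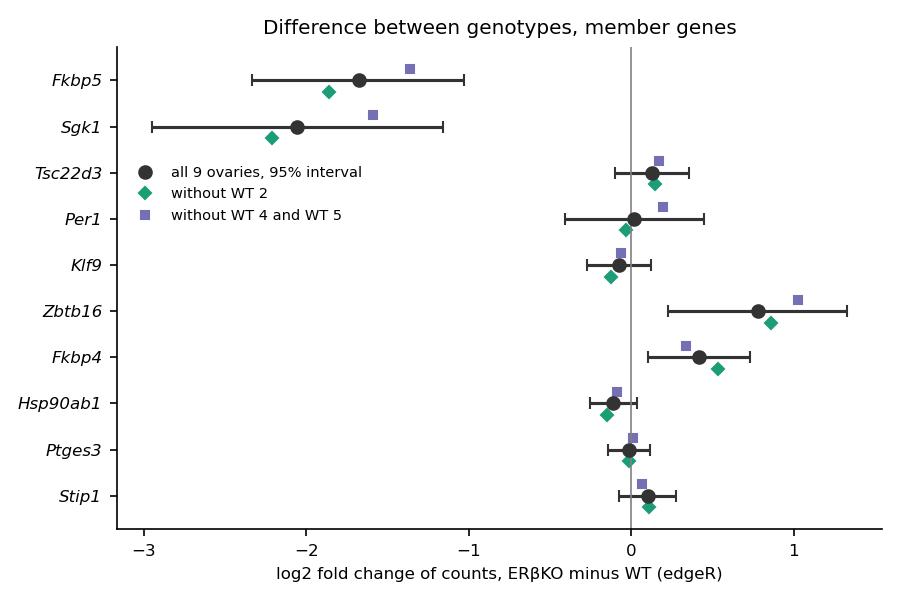
Log2 fold changes of counts, ERβKO minus WT (x axis), of the 10 genes with their 95% intervals in all 9 ovaries (black points), without WT replicate 2 (green diamonds) and without WT replicates 4 and 5 (purple squares). The intervals of Fkbp5 and Sgk1 end at -1.03 and -1.16, those of Fkbp4 and Zbtb16 start at 0.10 and 0.23, and those of the other 6 genes include 0.

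Of the chaperones, Fkbp4 (chr6:128429735-128438677, minus strand) was the one with the largest difference, in the direction opposite to that of Fkbp5. Fkbp4 FPKM was 75.2, 110.8, 88.6, 70.9 and 77.7 in the WT group and 89.6, 109.6, 138 and 110.4 in the ERβKO group, in replicate order. WT replicate 2, the WT ovary lowest in Fkbp5, was the WT ovary highest in Fkbp4 and lay within the ERβKO range. The log2 fold change of Fkbp4 was 0.42 (SE 0.142, 95% interval 0.10 to 0.73) and 0.53 without WT replicate 2, the only fit in which Fkbp4 was called. The ratio of Fkbp5 to Fkbp4, both in FPKM, was 1.73, 0.469, 0.983, 1.6 and 2.15 in WT and 0.407, 0.273, 0.295 and 0.334 in ERβKO ovaries, in replicate order. All ERβKO ovaries had less Fkbp5 than Fkbp4 RNA per length, and 3 of the 5 WT ovaries had more, with WT replicate 3 near equal amounts and WT replicate 2 close to the ERβKO range. The mean ratio was 1.39 ± 0.661 (SD, n = 5) in WT and 0.327 ± 0.0587 (SD, n = 4) in ERβKO ovaries.

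The general chaperones were nearly level between genotypes. Hsp90ab1 (chr17:45567775-45573271, minus strand), the constitutive cytosolic Hsp90, had the highest level of the 10 genes, 661 ± 39.0 FPKM (SD, n = 5) in WT and 625 ± 26.0 FPKM (SD, n = 4) in ERβKO ovaries. Its log2 fold change was -0.11 (SE 0.0641), with an interval of -0.25 to 0.03. Ptges3 (chr10:128058954-128077272, plus strand) was at 54.1 ± 1.75 FPKM (SD, n = 5) and 54.4 ± 4.10 FPKM (SD, n = 4), with a log2 fold change of -0.01 (SE 0.0586, interval -0.14 to 0.11). Stip1 (chr19:7020696-7040026, minus strand) was at 57.8 ± 5.51 FPKM (SD, n = 5) and 63.4 ± 2.83 FPKM (SD, n = 4), with a log2 fold change of 0.10 (SE 0.0787, interval -0.07 to 0.28). The intervals of these 3 genes thus reach no further than 0.25 below 0 and 0.28 above 0 on the log2 scale. The exons of none of the 10 genes share bases with another gene in GENCODE M21. For Fkbp5, Zbtb16, Klf9 and Stip1 the coordinates given here differ from those in GENCODE M21.

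Ovaries high in Fkbp5 were also high in Sgk1. Across the 9 ovaries the Pearson correlation of log2 CPM (counts scaled to library size) with Fkbp5 was 0.953 for Sgk1 (Spearman 0.933), where the genotype difference that both genes share enters the value, and 0.828 for the deviations from the genotype means. Fkbp4 had a correlation of -0.758 with Fkbp5, and of -0.434 for the deviations. The other members ranged from -0.646 for Zbtb16 to 0.784 for Hsp90ab1. Among the 14177 other genes compared, the 5 with the highest Pearson correlation with Fkbp5 were Nrn1 (0.991), Runx2 (0.990), Gm2a (0.989), Spag1 (0.989) and Oxtr (0.988), and Sgk1 was in place 82. Nrn1, which encodes neuritin, and Oxtr, the oxytocin receptor, had the same order over the 9 ovaries as Fkbp5 on the log2 CPM scale, with a Spearman correlation of 1, but not in FPKM, where ERβKO replicates 1 and 4 change places. The mean level of Nrn1 was 119.7 FPKM for WT against 25.2 for ERβKO, and that of Oxtr 25.4 against 6.56 FPKM. All points share the 9 libraries, and these correlations are descriptions without a test.

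The summed level of markers of luteal cells, the progesterone-producing cells, moved with Fkbp5 and Sgk1. The summed level of 9 luteal markers came to 6210, 3127, 3900, 4165 and 6725 FPKM in the WT group and 2594, 2582, 4069 and 2855 in the ERβKO group, in replicate order. The log2 fold changes of the single markers ranged from -1.91 for Star to 1.23 for Akr1c18, with -0.26 for Lhcgr. Most of this sum was Hsd3b1 (mean 2533 FPKM in WT and 1684 in ERβKO ovaries) and Cyp11a1 (1353 and 753 FPKM). The part of other steroid-making cells in these 2 genes was not tested. Lhcgr was at 37.9 FPKM in WT replicate 3 and at 197 FPKM in ERβKO replicate 3, unlike Fkbp5. Within each genotype the ovaries ranked in the same order by this sum as by Fkbp5 FPKM, although ERβKO replicates 1 and 4 hardly differed in Fkbp5, at 36.5 and 36.9 FPKM. Of the 9 luteal markers 8 had log2 fold changes below 0, with a median of -0.86, 0 were called by edgeR, 4 were lower at an unadjusted p under 0.05, where 10.0% of all genes were, and 2, Star and Cyp11a1, were called lower by DESeq2, which called 4.78% of all genes in either direction. Star, which brings cholesterol into mitochondria for steroid synthesis, had FPKM values of 217, 73.8, 184, 187 and 324 in the WT group and 66.5, 34.9, 85.4 and 26.7 in the ERβKO group. ERβKO replicate 3 had a luteal sum between those of WT replicates 3 and 4, and its Fkbp5 level was 40.6 FPKM against 87.1 and 113 FPKM in these. Its sum includes 471 FPKM of Akr1c18. In whole ovaries fewer cells of a type and less RNA per cell cannot be told apart, and the part of luteal cells in the lower levels of Fkbp5 and Sgk1 was not tested.

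**Figure D3:**
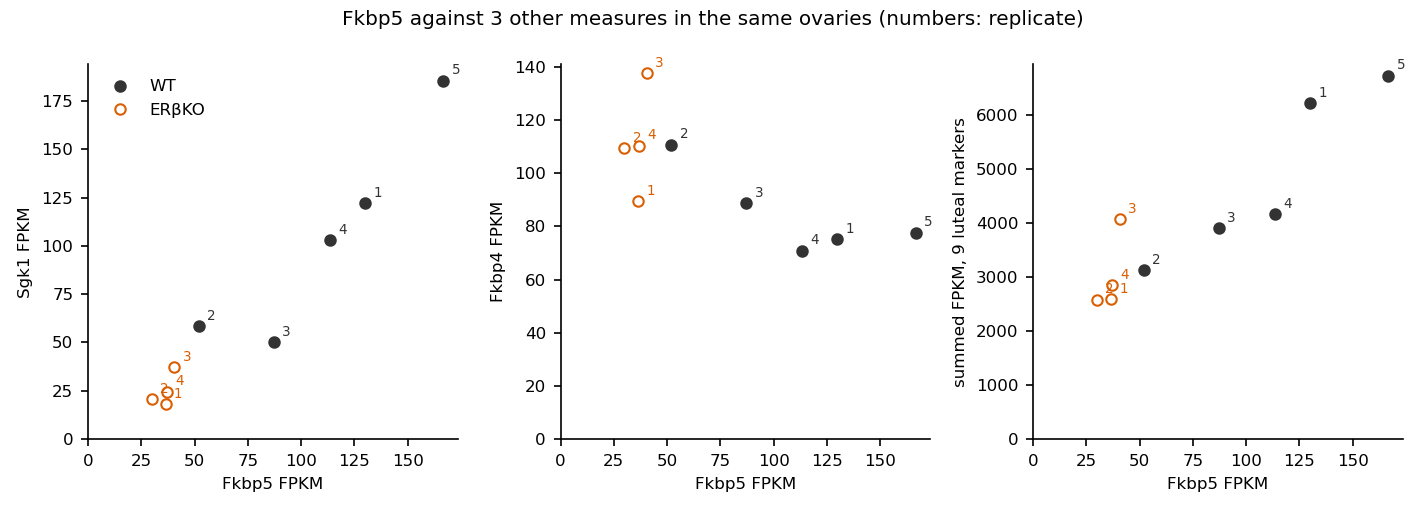
FPKM of Fkbp5 (x axes) against FPKM of Sgk1, FPKM of Fkbp4 and the summed FPKM of 9 luteal markers (y axes) in the 5 WT ovaries (filled) and the 4 ERβKO ovaries (open), numbered by replicate. Across the 9 ovaries, those high in Fkbp5 are mostly high in Sgk1 and in the luteal sum and mostly low in Fkbp4. ERβKO replicate 3 is the highest ERβKO ovary in both Fkbp5 and Fkbp4. WT replicate 2 lies nearest to the ERβKO ovaries in all 3 panels.

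The marker lists of the other cell types of the ovary moved less or the other way. The summed level of 9 granulosa cell markers was 551 to 662 (WT) and 720 to 934 FPKM (ERβKO), mostly Inha (mean 352 and 509 FPKM). Inhbb and Hsd17b1 rose (log2 fold change 1.09 and 0.77, adjusted p = 0.00883 and 0.0363 in edgeR's quasi-likelihood test). Of the 9 markers 8 had log2 fold changes above 0 and Fst was at -0.34, with a median of 0.50. The 2 edgeR calls, Inhbb and Hsd17b1, stand beside 0.915% of all genes called higher by edgeR. At an unadjusted p under 0.05 in edgeR, 4 of the 9 were higher and 0 lower, where 9.81% and 10.0% of all genes were. DESeq2, which called 4.78% of all genes in either direction, called Fshr, Inha, Inhbb and Hsd17b1 as higher. The sum of 6 theca cell markers was 465 to 728 (WT) and 836 to 1718 FPKM (ERβKO), mostly Aldh1a1. Aldh1a1 rose (log2 fold change 1.05, adjusted p = 0.0139 in the same edgeR test) and was the only theca marker called, where 0.915% of all genes were called higher. The 5 theca markers tested had a median log2 fold change of 0.12, so the list did not rise as a whole. Cyp17a1 had a log2 fold change of 2.35 (adjusted p = 0.205 in that test). It was at 390 and 472 FPKM in ERβKO replicates 2 and 3, and at most 127.6 FPKM in any other ovary. Gli1, Ptch1 and Hhip had log2 fold changes of 0.12, 0.03 and -0.06, and Insl3 was not tested. No marker of the oocyte, stromal, endothelial, macrophage, adipocyte or epithelial lists was called by edgeR. All 5 adipocyte markers were nevertheless higher at an unadjusted p under 0.05, where 9.81% of all genes were higher and 10.0% lower. The median log2 fold change of the adipocyte markers was 1.20, and DESeq2, which called 4.78% of all genes, called Plin1 and Cidec of these as higher. Of the other lists, 1 stromal and 2 epithelial markers were higher and 1 endothelial marker was lower at an unadjusted p under 0.05. Their sums were 35.4 to 112 (WT) and 75.3 to 145 FPKM (ERβKO) for oocytes, 405 to 588 and 562 to 617 for stromal cells, and 55.5 to 72.2 and 54.9 to 66.8 for endothelial cells. They were 165 to 311 and 199 to 342 FPKM for macrophages, 69.7 to 148 and 92.3 to 520 for adipocytes, and 1354 to 2436 and 1567 to 1993 for surface and oviduct epithelium, again in WT and ERβKO ovaries. No listed marker was at 0 in every library.

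Of 25 other known glucocorticoid targets 24 were tested and 0 were called by edgeR or by DESeq2, which called 1.72% and 4.78% of all genes. At an unadjusted p under 0.05 in edgeR, 6 were higher and 4 lower, where 9.81% and 10.0% of all genes were, and the median log2 fold change was 0.11. The 2 with the largest differences went in opposite directions. Plin4, a lipid droplet coat protein, had a log2 fold change of -1.82 (SE 0.637, adjusted p = 0.155 in edgeR's quasi-likelihood test), with 16.4 to 132 (WT) and 9.17 to 28.2 FPKM (ERβKO). Pck1, an enzyme of glucose synthesis, had a log2 fold change of 1.49 (SE 0.624, adjusted p = 0.224 in the same test), with 1.36 to 5.26 (WT) and 0.925 to 14.95 FPKM (ERβKO). In replicate order, Plin4 was at 75.4, 17.6, 16.4, 79.8 and 132 FPKM in WT and at 28.2, 12.4, 26.3 and 9.17 FPKM in ERβKO ovaries. The adipocyte sums in the same order were 69.7, 71.4, 122, 148 and 85.5 FPKM in WT and 520, 161, 223 and 92.3 FPKM in ERβKO ovaries. Plin4 and Pck1 are also expressed in fat cells, and the part of the adipocyte markers in their values was not tested. Dusp1, a phosphatase that switches off MAP kinases and is chosen here after its values were seen, was at 17.4, 5.28, 5.39, 24.8 and 15.8 FPKM in WT and at 5.18 to 6.51 FPKM in ERβKO ovaries. As in the case of Sgk1 and Plin4, WT replicates 2 and 3 were the low WT ovaries for Dusp1, and the adjusted p of Dusp1 was 0.125 in edgeR. Dusp1 is 1 of the 4 genes lower at an unadjusted p under 0.05, against the 6 that were higher. Mt2 had the smallest adjusted p of the list (0.0904 in edgeR), with a log2 fold change of -0.32. Without WT replicate 2, Dusp1 (log2 fold change -1.57) and Nfkbia (0.54) of this list were called, in opposite directions. That fit called 919 genes in all, against 287 with all 9 ovaries.

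Of 19 known progesterone receptor targets 17 were tested and 1, Runx1, was called lower, where 0.801% of all genes were. Runx1 is a transcription factor induced in granulosa cells around ovulation. Runx1 FPKM was 8.19, 6.70, 12.6, 8.15 and 7.87 in the WT group and 4.95, 4.08, 4.49 and 4.04 in the ERβKO group, and the groups did not overlap, as was so for 7.61% of all genes in either direction. Its log2 fold change was -0.99 (SE 0.159, adjusted p = 0.0158 in edgeR's quasi-likelihood test), and the call was lost without ERβKO replicate 2, without ERβKO replicate 4 and in the libraries numbered below 200. The median log2 fold change of the list was 0.05, and no other gene of it had an unadjusted p under 0.05.

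**Figure D4:**
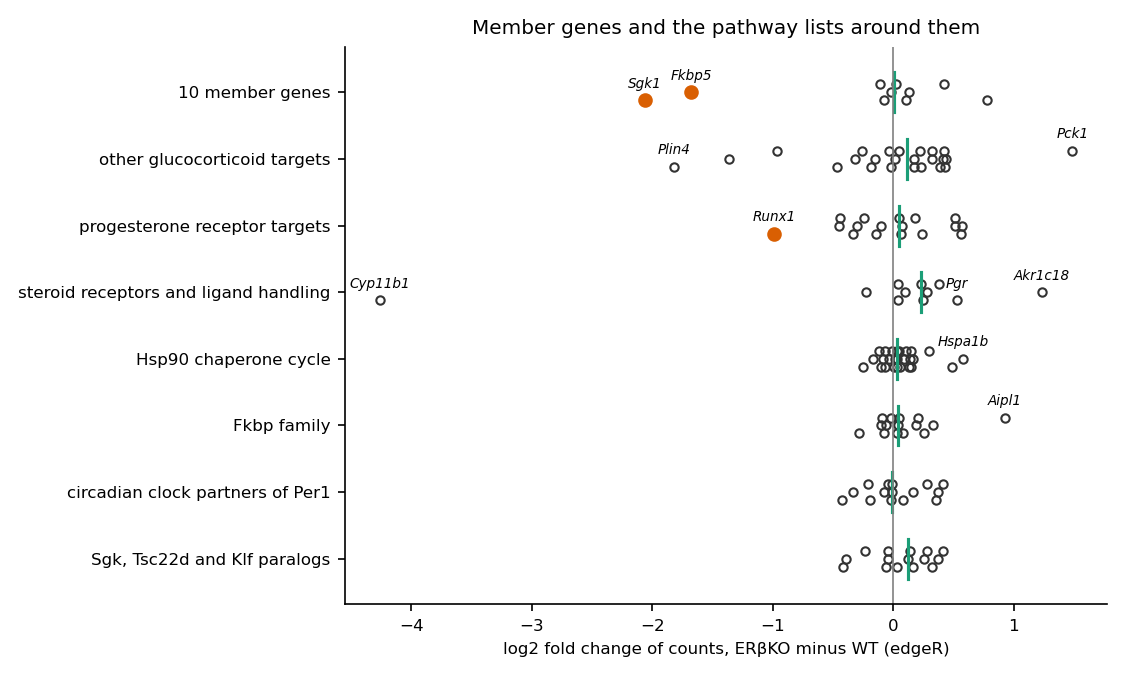
Log2 fold changes of counts, ERβKO minus WT (x axis), of the tested genes of 8 lists (rows), with genes that were called in orange, the others as open circles and the median of each list as a green line. Fkbp5, Sgk1 and Runx1 are the 3 called genes, all below 0, and the list medians lie between -0.01 and 0.23.

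None of the receptors described here was called by edgeR or by DESeq2, which gave Pgr no adjusted p. Of the 12 receptors and enzymes that handle their ligands 11 were tested, and 2 were higher and 2 lower at an unadjusted p under 0.05 in edgeR. The shares over all genes were 9.81% higher and 10.0% lower. Nr3c1, the glucocorticoid receptor, ranged from 8.68 to 9.59 FPKM in WT and from 9.32 to 11.6 in ERβKO ovaries (log2 fold change 0.10, SE 0.0605, adjusted p = 0.391 in edgeR's quasi-likelihood test). Nr3c2, the mineralocorticoid receptor, had a log2 fold change of 0.38 (adjusted p = 0.224) and Esr1, the estrogen receptor α, of 0.25 (adjusted p = 0.512), in the same edgeR test. Pgr, the progesterone receptor, had FPKM values of 1.08, 7.02, 1.03, 1.44 and 2.42 in the WT group and 2.73, 3.81, 4.36 and 4.10 in the ERβKO group. All ERβKO ovaries thus lay above 4 of the 5 WT ovaries, and WT replicate 2 lay above all others. The log2 fold change of Pgr was 0.53 (SE 0.484, adjusted p = 0.586 in edgeR's quasi-likelihood test), and without WT replicate 2 it was 1.30 and Pgr was called. Pgrmc1, a heme-binding membrane protein linked to progesterone, was higher in each ERβKO ovary (71.7 to 86.5 FPKM) than in any WT ovary (58.8 to 71.0 FPKM), with a log2 fold change of 0.28 and an adjusted p of 0.0929 in edgeR. Its relative Pgrmc2 had a log2 fold change of -0.23 (adjusted p = 0.164).

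Enzymes that make or remove the ligands differed mainly between single ovaries. Hsd11b1, which regenerates active glucocorticoid, and Hsd11b2, which inactivates it, had log2 fold changes of 0.23 (adjusted p = 0.738) and 0.04 (adjusted p = 0.938) in edgeR. Akr1c18, which inactivates progesterone in the regressing corpus luteum, had FPKM values of 151, 70.8, 26.0, 3.27 and 18.2 in the WT group and 1.29, 2.71, 471 and 19.4 in the ERβKO group, a spread within each genotype larger than the difference between them (log2 fold change 1.23, SE 1.43, adjusted p = 0.677 in edgeR). Without ERβKO replicate 3 the log2 fold change of Akr1c18 turned to -2.78. Cyp11b1, which makes the last step to corticosterone in the adrenal cortex, was at 4.58 FPKM in WT replicate 3 and at 0.314 FPKM or less in the other 8 ovaries, and was listed at 0 in 4 of them. Its counts were 329 in WT replicate 3, 7 to 20 in the other WT ovaries and 16, 0, 1 and 0 in the ERβKO ovaries. The log2 fold change of -4.26 (SE 1.46, adjusted p = 0.148 in edgeR) became -2.0 without WT replicate 3 and -7.43 without ERβKO replicate 1, and DESeq2 gave no adjusted p. Cyp21a1, the adrenal 21-hydroxylase, had 0, 0, 1, 3 and 5 counts in the WT and 0, 1, 1 and 0 in the ERβKO ovaries and did not pass the filter on low counts.

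The counts for the rest of the chaperone cycle lay near the shares of all genes. All 26 other genes of the Hsp90 cycle were tested, and 0 were called by edgeR or by DESeq2, which called 1.72% and 4.78% of all genes. At an unadjusted p under 0.05 in edgeR, 2 were higher and 2 lower, where 9.81% and 10.0% of all genes were. The log2 fold changes of the 26 genes lay between -0.25 and 0.58 with a median of 0.03. The largest were those of the heat-inducible Hsp70 genes Hspa1b (0.58, adjusted p = 0.438) and Hspa1a (0.48, adjusted p = 0.351), which share most of their sequence so that reads may be split between them. Of all genes tested, 60.5% had an absolute log2 fold change under 0.2.

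In the rest of the Fkbp family 15 genes were tested and 0 were called by edgeR or DESeq2, which called 1.72% and 4.78% of all genes. At an unadjusted p under 0.05 in edgeR, 1 was higher and 1 lower, where 9.81% and 10.0% of all genes were. The median log2 fold change of the family was 0.04. The largest differences were those of Aipl1 (log2 fold change 0.93, adjusted p = 0.474), with at most 1.31 FPKM, and Fkbp7, an immunophilin of the endoplasmic reticulum (0.33, adjusted p = 0.247). Fkbp1a, the small immunophilin FKBP12, named after its values were seen, was lower in every ERβKO ovary (93.5 to 106.3 FPKM) than in any WT ovary (118 to 133 FPKM). Its adjusted p was 0.0404 in edgeR's quasi-likelihood test, with a log2 fold change of -0.28 that did not reach the 0.4 a call needs.

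Genes related to Per1, Sgk1, Tsc22d3 and Klf9 by function or sequence were not called by edgeR or DESeq2, which called 1.72% and 4.78% of all genes. Of 15 clock partners of Per1, 3 were higher and 0 lower at an unadjusted p under 0.05, where 9.81% and 10.0% of all genes were. The median log2 fold change of the clock partners was -0.01. The output gene Dbp had a log2 fold change of -0.42 (adjusted p = 0.370) and Per2 of 0.41 (adjusted p = 0.460). Of 16 paralogs in the Sgk, Tsc22d and Klf families 15 were tested. Of these, 2 were higher and 2 lower at an unadjusted p under 0.05, against the same shares of all genes, and the median was 0.12. Klf10, induced by TGF-β, had a log2 fold change of -0.42 (adjusted p = 0.184), and Sgk3, a paralog of Sgk1, of 0.41 (adjusted p = 0.160). Without WT replicate 3, Klf7 of this list was called.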

How the data were processed

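RNA-seq libraries of 5 WT and 4 ERβKO ovaries were grouped by the replicate titles of the labels, and whether each replicate is a separate mouse rests on the study's methods. The authors prepared strand-keeping poly(A) libraries, mapped them with STAR to GRCm38 and deposited raw counts per gene from featureCounts, without normalization. Whether counting used the strand is not given in the sources used here. The deposited FPKM values are those the authors made with StringTie, and deposited TPM and coverage were not used.

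Counts were fitted in R 4.3.3 with edgeR 4.0.16 (filterByExpr, TMM, quasi-likelihood test, genotype as factor, common biological coefficient of variation 0.179). DESeq2 1.42.0, the authors' tool, and limma 3.58.1 on log2 FPKM were alternatives, as were other size factors, other filters, a block for the replicate number, fits without 1 library and the libraries numbered below 200. The scripts were tested on simulated counts. The thresholds of a call are the study's.

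The 10 genes, the pathway and marker lists and the alternatives were chosen with earlier results of these data known. Named are the 10 genes, the genes called in each list or else the 2 with the largest absolute log2 fold change, the receptors and ligand enzymes, and the 5 genes most like Fkbp5 by Pearson correlation of log2 CPM or of deviations from genotype means, with a mean FPKM over 1 in a genotype. Not every listed gene is reported here. Promoter sequences are RefSeq's. Intervals cover the spread between these libraries only.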

Additional observations from a re-analysis of the deposited data

Results flagged for a closer look

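Of 108 groups of values checked, 8 held 1 ovary that stood far from the rest of its genotype by Dixon's criterion, which chance meets in about 1 of 20 groups. None of them was a value of the 10 genes. Pgr, the progesterone receptor, was at 7.02 FPKM in WT replicate 2 against 1.03 to 2.42 FPKM in the other WT ovaries. Runx1 was at 12.6 FPKM in WT replicate 3 against 6.70 to 8.19 FPKM, and thus farthest from the ERβKO ovaries there. Cyp11b1 was at 4.58 FPKM in WT replicate 3 against at most 0.314 FPKM in the other WT ovaries, and at 0.207 FPKM in ERβKO replicate 1 while listed at 0 in the other ERβKO ovaries. Cyp21a1 was at 0.0158 FPKM in WT replicate 3 and listed at 0 in the other WT ovaries, a value that rests on 1 count, while WT replicates 4 and 5 held 3 and 5 counts. Akr1c18 was at 471 FPKM in ERβKO replicate 3 against 1.29 to 19.4 FPKM in the other ERβKO ovaries. Nr3c1, the glucocorticoid receptor, was at 11.6 FPKM in ERβKO replicate 1 against 9.32 to 9.44 FPKM. Spag1, among the genes most like Fkbp5, was at 3.42 FPKM in ERβKO replicate 2 against 4.45 to 4.53 FPKM.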

How the results depend on the processing

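Over 18 alternative fits the log2 fold change of Fkbp5 lay between -1.86 and -1.36 with 14 calls, and that of Sgk1 between -2.32 and -1.59 with 10 calls. All 180 alternative values of the 10 genes moved by less than the spread between replicates. That spread is between single ovaries, and leaving 1 ovary out of a group mean can hardly exceed it. Nothing is therefore read from this comparison for the fits with 1 library left out. The sign was the same in all 18 fits for 8 of the 10 genes, in 14 for Per1 and in 11 for Ptges3. The number of genes called, 287 in edgeR, was 800 in DESeq2, 191 in limma on log2(FPKM + 1), 51 in the libraries numbered below 200, and 60 (without ERβKO replicate 2) to 919 (without WT replicate 2) with 1 library left out. It was 118 without WT replicate 1, 161 without WT replicate 4, 110 without WT replicate 5, 152 without ERβKO replicate 3 and 80 without ERβKO replicate 4. Of the 10 genes 2 were called, 3 in DESeq2, 0 in the libraries numbered below 200 and 0 to 3 with 1 library left out. With 1 library left out the calls were 0 to 2 among glucocorticoid targets, 0 to 1 among progesterone receptor targets (0 also in the libraries numbered below 200), 0 to 1 among receptors and ligand enzymes and 0 to 1 among paralogs. The cause of these differences was not tested. The shared replicate numbers did not pair the ovaries: deviations of same-numbered samples correlated at -0.04 to 0.13, and no sample correlated best with its own number. With the replicate number as a block 155 genes and 1 of the 10, Fkbp5 (log2 fold change -1.39), were called.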

Other observations

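When the genotype means were taken out, the genes that followed Fkbp5 most closely among the 9 ovaries were Ppapdc2 (correlation of deviations 0.991), Mmab (0.983), Nrn1 (0.980), Agpat6 (0.979) and Retsat (0.974). Agpat6 is an acyltransferase of glycerolipid synthesis, Retsat a retinol saturase and Mmab an enzyme of cobalamin metabolism. Apart from Nrn1 they differed little between genotypes compared with Fkbp5. The mean level of Ppapdc2 was 8.21 FPKM for WT against 6.44 for ERβKO (log2 fold change -0.38), of Mmab 10.2 against 8.63 FPKM (-0.26), of Agpat6 17.9 against 15.8 FPKM (-0.20) and of Retsat 10.5 against 7.44 FPKM (-0.52). Nrn1, with a log2 fold change of -2.27, was the only gene among the 5 highest both by this measure and by the correlation over all 9 ovaries. Sgk1, with a correlation of deviations of 0.828, was in place 470 by this measure. The deviations come from 9 libraries, and these values are descriptions without a test.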
